A study of Mus musculus with 6 samples.

Results

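The 10 genes described here encode proteins that neutrophils store in granules or hold in their cytosol: myeloperoxidase (Mpo), neutrophil elastase (Elane), proteinase 3 (Prtn3), neutrophilic granule protein (Ngp), cathelicidin (Camp), lactoferrin (Ltf), lipocalin 2 (Lcn2), neutrophil collagenase (Mmp8) and the calcium-binding proteins S100A8 and S100A9 (S100a8, S100a9). They were taken by symbol from tables of 24346 genes, and each of the 10 was found. RNA was sequenced from splenic dendritic cells of mice, sorted for CD11c on an autoMACS magnetic sorter: 3 libraries had the treatment IL-33, an alarmin cytokine related to IL-1, and 3 had PBS, a saline buffer, as control. Strain, age, sex, dose and time are absent from the labels, as is whether the treatment took place in the animal or in culture. Nor do the labels say that libraries of one group stem from different animals or cultures, so p-values measure only how far these libraries spread, and that spread may be technical.

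Neutrophils build their granules in sequence as they mature in the marrow. Azurophil (primary) granules, with myeloperoxidase and the serine proteases elastase and proteinase 3, are filled at the promyelocyte stage. Specific and gelatinase (secondary and tertiary) granules, with lactoferrin, cathelicidin, neutrophilic granule protein, lipocalin 2 and collagenase, are filled later, and the transcripts of both classes are largely gone from mature circulating neutrophils. S100A8 and S100A9 form the heterodimer calprotectin, which is held in the cytosol and is transcribed into the mature stage and also in monocytes. C/EBPε, encoded by Cebpe, is the transcription factor required for the late granule genes, and PU.1, encoded by Spi1, together with C/EBPα acts on the azurophil genes. The granule genes are best known from granulocytes and their precursors, and dendritic cells are not known as a main source of them.

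The stretches upstream of 5 of the genes are shown because they differ in the letters they hold, the early genes first and then 2 late genes. Sequences are from RefSeq for GRCm38.p6, the assembly also called mm10, and each is the 250 bases before the gene's start, read 5′ to 3′ on the gene's own strand, which is the plus strand for all 5. Capitals mark a match to GAGGAAG, a core of PU.1 sites, or to TTGCNNAA, a form of the C/EBP site, on either strand. The positions are chr11:87793534-87793783 for Mpo, chr10:79886062-79886311 for Elane, chr10:79879417-79879666 for Prtn3, chr9:110419558-110419807 for Ngp and chr9:111019042-111019291 for Ltf.
Mpo: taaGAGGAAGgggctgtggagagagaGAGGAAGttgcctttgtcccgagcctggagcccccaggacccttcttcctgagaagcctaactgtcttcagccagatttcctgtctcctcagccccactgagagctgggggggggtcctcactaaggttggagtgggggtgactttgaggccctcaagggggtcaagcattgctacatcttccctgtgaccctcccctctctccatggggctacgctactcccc
Elane: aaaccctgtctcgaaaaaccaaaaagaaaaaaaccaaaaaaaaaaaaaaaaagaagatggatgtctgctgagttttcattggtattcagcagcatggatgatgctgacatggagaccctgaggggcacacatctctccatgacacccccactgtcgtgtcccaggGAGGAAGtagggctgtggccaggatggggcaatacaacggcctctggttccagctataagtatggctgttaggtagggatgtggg
Prtn3: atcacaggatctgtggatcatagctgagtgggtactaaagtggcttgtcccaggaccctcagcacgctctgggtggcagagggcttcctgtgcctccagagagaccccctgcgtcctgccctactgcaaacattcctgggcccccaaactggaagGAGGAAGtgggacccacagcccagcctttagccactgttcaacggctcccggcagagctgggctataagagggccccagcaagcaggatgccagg
Ngp: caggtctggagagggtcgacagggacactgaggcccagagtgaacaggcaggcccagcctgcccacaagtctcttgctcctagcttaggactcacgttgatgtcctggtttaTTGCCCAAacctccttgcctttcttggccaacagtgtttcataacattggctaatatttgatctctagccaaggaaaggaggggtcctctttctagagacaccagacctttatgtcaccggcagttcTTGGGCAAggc
Ltf: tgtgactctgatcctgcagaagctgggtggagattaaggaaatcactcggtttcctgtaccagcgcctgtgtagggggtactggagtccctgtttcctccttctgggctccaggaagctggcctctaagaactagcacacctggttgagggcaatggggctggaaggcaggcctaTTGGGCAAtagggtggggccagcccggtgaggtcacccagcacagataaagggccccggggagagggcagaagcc
GAGGAAG stood upstream of each of the 3 azurophil genes, at 85 bases before the start of Elane, at 95 bases before that of Prtn3, and at 247 and 224 bases before that of Mpo, each on the plus strand. In windows from 250 bases before to 50 bases after the start, 13.6% of 32851 promoters in the RefSeq table held it. Among the late genes, Lcn2 and Mmp8 held it on the opposite strand, as did S100a8. TTGCNNAA stood in the windows of 4 of the 5 late genes: Ngp held it at 138 and 11 bases before the start, Ltf at 75, Lcn2 at 216 and Mmp8 at 19. S100a9 held it at 236 bases before the start, none of the windows of the 3 azurophil genes, of Camp or of S100a8 held it, and 10.8% of all promoters did. No 2 matches overlapped. These 2 strings were picked out of 11 that were looked at after the expression values were known. A match is a run of letters and not a shown binding site.

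The genes lie in 3 small clusters and 3 single places. Camp, Ngp and Ltf lie within 1.20 Mb of chromosome 9, Prtn3 ends 3.14 kb before Elane starts on chromosome 10, and S100a8 and S100a9 lie 22.6 kb apart on chromosome 3, while Mmp8 lies elsewhere on chromosome 9, Lcn2 on chromosome 2 and Mpo on chromosome 11. On GRCm38 the protein-coding genes span chr9:109847377-109849456 (Camp), chr9:110419808-110423012 (Ngp), chr9:111019292-111042766 (Ltf), chr9:7558429-7568486 (Mmp8), chr2:32384637-32387739 (Lcn2), chr10:79879667-79883174 (Prtn3), chr10:79886312-79888216 (Elane), chr11:87793784-87804412 (Mpo), chr3:90669071-90670034 (S100a8) and chr3:90692630-90695721 (S100a9). Among 14 other tested genes between Camp and Ltf, 6 fell and 2 rose with IL-33, and the median change was -0.20 on the log2 scale. Of all tested genes 25.5% fell and 28% rose, with a median change of 0.01. The stretch was chosen after its values were seen, and its difference from all genes was not tested.

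Levels are in FPKM, fragments scaled to transcript length and to sequencing depth, so they can be set against each other between genes. A change is the mean log2(FPKM + 1) of the IL-33 libraries less that of the PBS libraries, with a standard error (SE), from limma fitted to all 11518 genes that reached 1 FPKM in at least 3 of the 6 libraries, with two-sided p-values adjusted by Benjamini-Hochberg over all of them. In the libraries as a whole, depth relative to PBS replicate 1 lay between 0.946 and 1.22 and did not separate the groups, whereas the sum of FPKM was 778391 to 841884 with IL-33 and 614522 to 641412 with PBS. Dendritic cell genes such as Itgax (CD11c), Flt3 and Zbtb46 were present in each library, at 282.7, 74.8 and 23.5 FPKM with IL-33 and 241.3, 114.0 and 36.9 FPKM with PBS on average. FPKM values fell on whole steps, from which the number of fragments behind 9 of the 10 genes was recovered to within 0.02 of a whole number in every library. Fragments cover counting error only, and a gene with no fragment is said to be listed at 0.

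**Figure D1:**
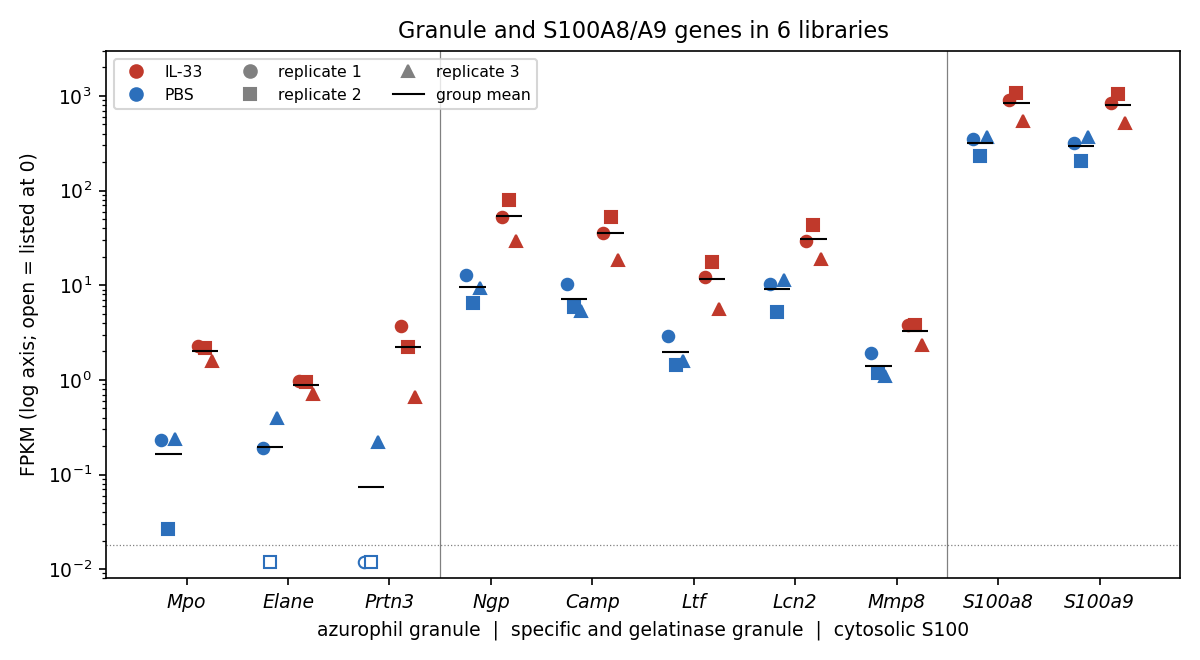
FPKM (log axis) of the 10 genes in the 3 PBS (blue) and 3 IL-33 (red) libraries, with the replicate as the symbol, the group mean as a line and open symbols for libraries listed at 0. No PBS library reaches the lowest IL-33 library for any of the 10 genes, and levels span from under 1 FPKM for Elane to 1067 FPKM for S100a8.

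For each of the 10 genes the lowest IL-33 library lay above the highest PBS library. Such a separation upward was seen for 24.6% of the 17265 genes above 0 in at least 1 library and for 32.7% of the genes that passed the filter, and one downward for 24.7% and 30.9%. The expression filter was passed by 8 of the 10. Limma called those 8 higher and 0 of them lower, where 28% of all tested genes were called higher and 25.5% lower. For 7 of the 8 the PBS libraries alone passed the filter, whereas Mpo passed through its IL-33 libraries only and had to differ. The median change over the 10 genes was 1.44, against 0.01 over all tested genes. In bulk RNA, more cells of a type and more RNA per cell cannot be told apart. The 8 calls were kept under each of the 15 alternative settings that tested the gene, including equal library totals, under which the median of all tested genes moved to -0.30 and the changes lay between 0.67 (Mmp8) and 2.02 (Ngp).

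Mpo makes hypochlorous acid from hydrogen peroxide and chloride in the azurophil granule. Its level was 2.26, 2.16 and 1.57 FPKM in replicates 1, 2 and 3 with IL-33 and at 0.233, 0.0268 and 0.240 FPKM in the PBS replicates. The groups were far apart, with the lowest IL-33 library at 6.56 times the highest PBS library. Behind these values were 83, 75 and 51 fragments with IL-33 and 8, 1 and 10 with PBS. The change was 1.36 (SE 0.14, n = 3 per group, limma adjusted p = 0.00057), and the ratio of group means was 12.0. Because Mpo passed the filter through its IL-33 libraries only, it had to differ, and this p is not separate support. With no filter the limma adjusted p was 0.00153.

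Elane encodes neutrophil elastase, a serine protease that cuts elastin and bacterial proteins. It was the least abundant of the 10 with IL-33, at 0.982, 0.948 and 0.709 FPKM, and stood at 0.191 FPKM, listed at 0 and 0.394 FPKM in PBS replicates 1, 2 and 3. These values rest on 11, 10 and 7 fragments with IL-33 and 2, 0 and 5 with PBS. The nearest libraries, IL-33 replicate 3 (7 fragments, exact 95% Poisson interval 2.81 to 14.4) and PBS replicate 3 (5 fragments, 1.62 to 11.7), were not distinguishable by counting error. The count of 0 in PBS replicate 2 has an interval of 0 to 3.69 fragments, where 3 fragments are 0.264 FPKM. Elane did not pass the filter. The exact two-sided permutation test gave p = 0.1, the smallest that 3 against 3 libraries allow, and with no filter limma gave a change of 0.66 (SE 0.13, adjusted p = 0.0111 over 17265 genes).

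Prtn3 encodes proteinase 3, the close relative of elastase encoded next to it. It stood at 3.75, 2.21 and 0.662 FPKM with IL-33, listed at 0 in PBS replicates 1 and 2, and at 0.221 FPKM in PBS replicate 3. The IL-33 libraries differed among themselves by 5.67 times, the widest range among the 10 genes in that group, with replicate 1 high and replicate 3 low. The fragments were 45, 25 and 7 with IL-33 and 0, 0 and 3 with PBS. The exact 95% Poisson interval of 0 fragments reaches 3.69, where 3 fragments are 0.268 and 0.246 FPKM in PBS replicates 1 and 2. The intervals of IL-33 replicate 3 (2.81 to 14.4 fragments) and PBS replicate 3 (0.619 to 8.77) overlapped. That of IL-33 replicate 3 also overlapped those of PBS replicates 1 and 2 (0 to 3.69). Prtn3 did not pass the filter either. The exact permutation p was again the smallest possible, 0.1, and with no filter the change was 1.46 (SE 0.37, limma adjusted p = 0.025). With no filter 10 of the 10 genes were called higher, where 18.5% of all genes were and 17% were lower.

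**Figure D2:**
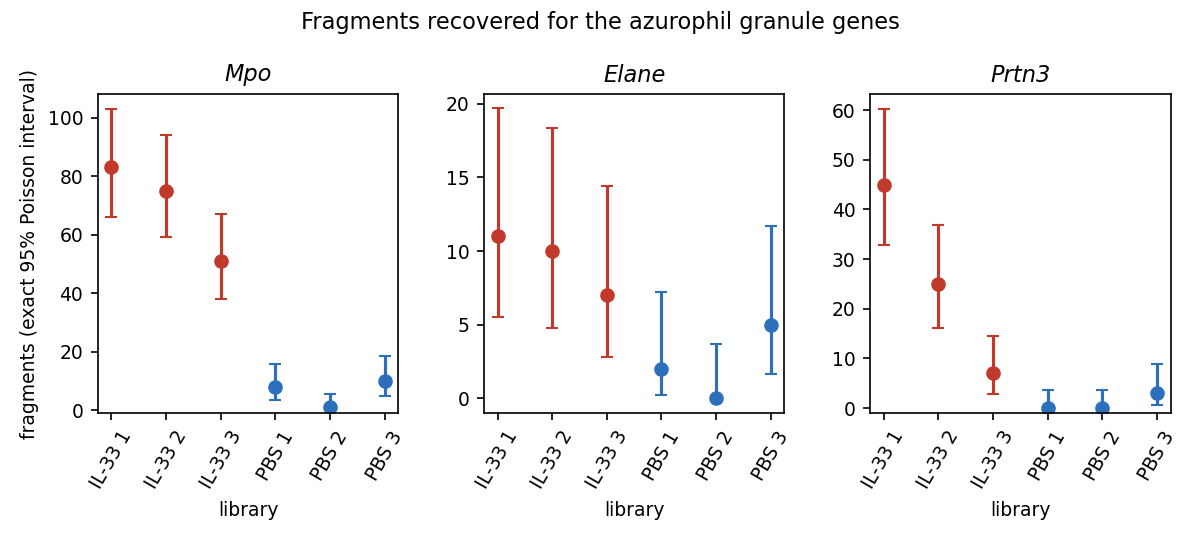
Fragments recovered from the FPKM steps for Mpo, Elane and Prtn3 in each library (red IL-33, blue PBS), with exact 95% Poisson intervals that cover counting error only. Mpo has 51 fragments or more in each IL-33 library and at most 10 in each PBS library. For Elane the interval of each IL-33 library overlaps those of PBS replicates 1 and 3. For Prtn3 the interval of IL-33 replicate 3 overlaps that of each PBS library.

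Other products of the promyelocyte stage were low as well. Ctsg, the third serine protease of azurophil granules (cathepsin G), had 20, 15 and 9 fragments with IL-33 and 1, 4 and 0 with PBS, or 1.23 ± 0.39 and 0.134 ± 0.163 FPKM (SD, n = 3 per group). Ms4a3, a membrane protein of granulocyte and monocyte precursors, had 2, 8 and 7 fragments with IL-33 and was listed at 0 in the 3 PBS libraries. Neither passed the filter, both are named for their values, and for both the groups were separated, whereas Bpi, the bactericidal permeability-increasing protein, overlapped near 0. The 95% Poisson intervals of the nearest libraries of Ctsg and of Ms4a3 overlapped. For Ctsg they were 4.12 to 17.1 fragments in IL-33 replicate 3 and 1.09 to 10.2 in PBS replicate 2. For Ms4a3 they were 0.242 to 7.22 in IL-33 replicate 1 and 0 to 3.69 in each PBS library. Prss57, a further azurophil protease, was the single tested gene of the 4, passed the filter through its IL-33 libraries only, and stood at 1.02, 1.55 and 1.28 FPKM with IL-33 and 0.96, 0.453 and 0.699 FPKM with PBS (change 0.43, limma adjusted p = 0.0463). Its call was lost under 10 of the 14 alternatives that tested it, with equal totals among them (0.31, limma adjusted p = 0.192).

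Among the late granule genes, Ngp was the most abundant. It encodes a cystatin-like protein of specific granules and stood at 52.8, 79.6 and 29.2 FPKM with IL-33 and at 12.9, 6.43 and 9.35 FPKM with PBS. IL-33 replicate 2 was high and replicate 3 low, yet the lowest IL-33 library had 2.26 times the level of the highest PBS library. The change was 2.31 (SE 0.36, limma adjusted p = 0.00217), the largest of the 10 at this pseudocount, and it rested on 386 to 1124 fragments per IL-33 library and 98 to 181 per PBS library.

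Camp, the precursor of the antimicrobial peptide CRAMP and a cystatin-fold protein like Ngp, stood at 35.8, 52.3 and 18.4 FPKM with IL-33 and at 10.3, 5.92 and 5.30 FPKM with PBS. Its order over the IL-33 libraries was that of Ngp, and the groups did not overlap. The change was 2.09 (SE 0.37, limma adjusted p = 0.00337). The level of Ngp was 1.48 to 1.58 times that of Camp within the IL-33 libraries and 1.09 to 1.76 times within the PBS libraries, a narrower range with IL-33. Camp had 220, 303 and 100 fragments with IL-33 but only 59, 37 and 37 with PBS. The part of counting error in the wider PBS range was not tested.

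Ltf, the iron-binding lactoferrin, stood at 12.3, 17.4 and 5.57 FPKM with IL-33 and at 2.93, 1.43 and 1.57 FPKM with PBS (change 2.01, SE 0.37, limma adjusted p = 0.00377). Lcn2, which binds bacterial siderophores and is also made by macrophages and epithelia, stood at 29.7, 43.4 and 18.8 FPKM with IL-33 and at 10.4, 5.24 and 11.5 FPKM with PBS (change 1.64, SE 0.34, limma adjusted p = 0.0064). For both genes IL-33 replicate 2 was again the highest library. Mmp8, the collagenase, was the lowest late gene, at 3.82, 3.82 and 2.31 FPKM with IL-33 and 1.94, 1.17 and 1.10 FPKM with PBS. Its groups came closest of all, with IL-33 replicate 3 at 1.19 times PBS replicate 1, or 72 against 64 fragments. The change of Mmp8 was 0.84 (SE 0.19, limma adjusted p = 0.00947).

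S100a8 and S100a9, the subunits of calprotectin, were by far the most abundant of the 10. S100a8 stood at 896, 1067 and 543 FPKM with IL-33 and at 354, 233 and 367 FPKM with PBS (change 1.36, SE 0.27, limma adjusted p = 0.0052). S100a9 stood at 849, 1055 and 514 FPKM with IL-33 and at 316, 206 and 371 FPKM with PBS (change 1.41, SE 0.30, limma adjusted p = 0.00661). The groups did not overlap for either gene, and the lowest IL-33 library lay 1.48 and 1.38 times above the highest PBS library. The subunits were present at nearly equal levels in each library, with S100a8 at 1.01 to 1.06 times S100a9 in the IL-33 libraries and 0.989 to 1.13 times in the PBS libraries. Together they made up 0.207%, 0.273% and 0.135% of summed FPKM with IL-33 and 0.109%, 0.0684% and 0.115% with PBS.

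Within the IL-33 group the 10 genes were lowest in replicate 3 without exception. Replicate 2 was the highest library for 4 of the 5 late genes and for S100a8 and S100a9, while Mpo, Elane and Prtn3 were highest in replicate 1. In the PBS group, replicate 2 was the lowest library for 5 of the 7 late and S100 genes. With IL-33 the order of mean levels ran from S100a8 over S100a9, Ngp, Camp, Lcn2, Ltf, Mmp8, Prtn3 and Mpo to Elane. S100a8 and S100a9 (835 ± 267 and 806 ± 273 FPKM), Ngp, Camp and Lcn2 (53.9 ± 25.2, 35.5 ± 16.9 and 30.6 ± 12.4 FPKM), and Mmp8, Prtn3 and Mpo (3.32 ± 0.87, 2.21 ± 1.55 and 2.00 ± 0.37 FPKM) were neighbours in that order whose means differed by less than the larger of their SDs.

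Set against each other, the late genes had the larger median change on the log2(FPKM + 1) scale. Gene by gene the classes overlapped, with Mmp8 (0.84) below Mpo (1.36) and Prtn3 (1.46). The median change was 2.01 over the 5 late genes and 1.36 over the 3 early genes, a difference of 0.65. On the ratio of group means, Mpo (12.0) and Prtn3 (30.0) lay above all late genes (2.36 to 5.95). Elane, at 4.51, lay below Ngp (5.63), Camp (4.95) and Ltf (5.95). The PBS means of Elane and Prtn3 rest on at most 5 fragments in any library. A pseudocount of 0.1 turned the difference to -0.86 and a pseudocount of 5 gave 0.88, since the PBS values of the early genes lie far below 1 FPKM. Without IL-33 replicate 2 the difference was 0.37. No test was made of it, as the genes were chosen with results known. The late-to-early order therefore depends on the scale. The S100 genes, far above any pseudocount, had a mean 2.62 and 2.71 times higher with IL-33, below the ratios of 4 of the 5 late genes and above that of Mmp8.

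**Figure D3:**
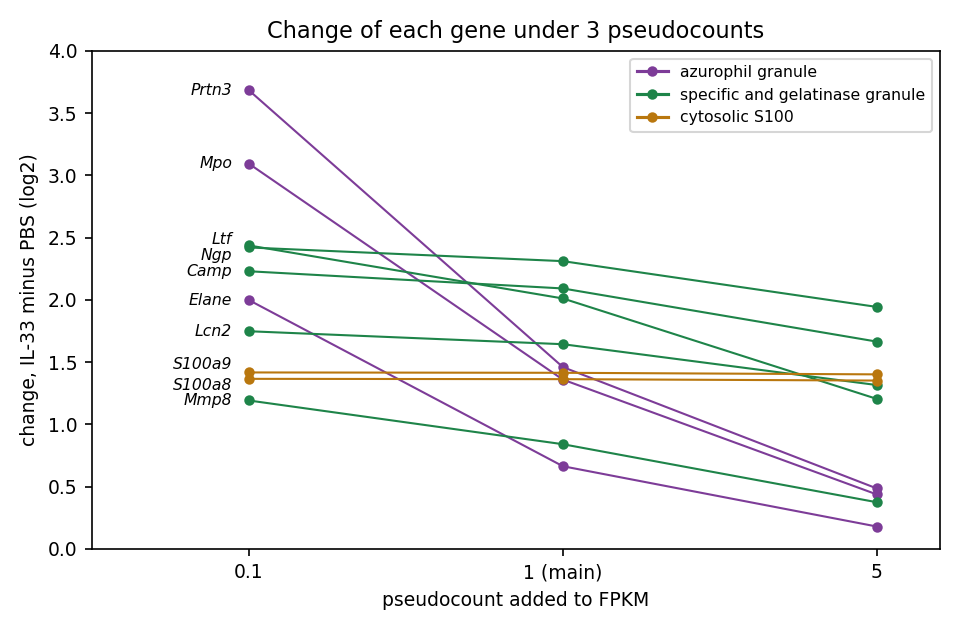
Change of each gene, IL-33 minus PBS, on the log2 scale with 0.1, 1 or 5 added to FPKM, coloured by class. Prtn3 and Mpo fall from above 3 with 0.1 to 0.48 and 0.44 with 5, while S100a8 and S100a9 stay between 1.35 and 1.42.

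Relative to S100a9, Ngp transcript was more abundant with IL-33. S100a9 stood at 16.1, 13.2 and 17.6 times the level of Ngp in the IL-33 libraries and at 24.4, 32.0 and 39.7 times in the PBS libraries, without overlap. The ratio was picked after its values were seen and was not tested.

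Other genes of specific and gelatinase granules did not move as one. Of 11 listed, 8 were tested, of which 4 were higher, 1 was lower and 3 did not pass, with a median change of 0.40. The shares were 50% higher and 12.5% lower, against 28% and 25.5% of all tested genes. Adam8, a metalloprotease of the cell surface and granule membrane, stood at 142, 146 and 148 FPKM with IL-33 and at 57.0, 56.8 and 64.4 FPKM with PBS (change 1.28, SE 0.07, limma adjusted p = 6.96e-05), and Mmp25, a membrane-bound metalloprotease of neutrophils, rose by 1.05 (SE 0.09). Chil1 rose by 0.68 and Itgam (CD11b) by 0.35, and both calls were lost with equal totals (0.51 and 0.01). The gelatinase gene Mmp9, named because it was the single one lower, stood at 10.3, 10.1 and 4.42 FPKM with IL-33 and at 15.1, 12.5 and 13.9 FPKM with PBS (change -0.75, SE 0.27, limma adjusted p = 0.0488). With equal totals 2 genes of the list were higher and 3 lower. Without IL-33 replicate 1 or 2 or without PBS replicate 1 there were 2 higher, and without PBS replicate 2 or 3 there were 0 lower.

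Genes of mature neutrophils were called in shares near those of all tested genes. Of 18 tested, 6 were higher (33.3%, against 28% of all genes), 4 lower (22.2%, against 25.5%) and 8 did not pass the test, with a median change of 0.25, which turned to -0.05 with equal totals (4 higher, 6 lower). The receptor for the granulocyte growth factor G-CSF, Csf3r, stood at 30.0, 29.3 and 20.1 FPKM with IL-33 and at 39.4, 34.6 and 41.9 FPKM with PBS, lower without overlap (change -0.54, SE 0.15, limma adjusted p = 0.0212). Mcemp1 fell by 1.35 (SE 0.08, limma adjusted p = 0.00011), and Trem1 was among the lower genes as well, at -0.73. Csf3r and Trem1 are named because of their values. The chemokine receptor Cxcr2, likewise named, overlapped at 7.22, 5.97 and 5.11 FPKM with IL-33 and 8.24, 5.30 and 8.80 FPKM with PBS (limma adjusted p = 0.315). In the other direction Retnlg, a resistin-like protein secreted by neutrophils, stood at 157, 175 and 101 FPKM with IL-33 and at 29.0, 20.5 and 26.5 FPKM with PBS (change 2.44, SE 0.21, limma adjusted p = 0.000336). Wfdc21 rose by 1.74 (SE 0.23) and the stefin gene Stfa2l1 by 1.22 (SE 0.21), and near-identical stefin copies make the latter uncertain as to the gene. Without IL-33 replicate 3 or PBS replicate 3, 2 genes of the list were lower.

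The proportion of granule transcript to transcript of mature neutrophils depended on the gene it was set against. Ngp stood at 1.76, 2.71 and 1.45 times Csf3r in the IL-33 libraries and at 0.328, 0.186 and 0.223 times in the PBS libraries. For S100a9 the proportion was at least 25.5 with IL-33 and at most 8.86 with PBS. For Mpo it was 0.0752, 0.0738 and 0.0781 with IL-33, nearly the same in each library, and at most 0.00592 with PBS. Against Retnlg, which rose, Ngp stood at 0.336, 0.454 and 0.29 times in the IL-33 libraries and at 0.447, 0.314 and 0.353 times in the PBS libraries, which overlapped. S100a9 stood at 5.10 to 6.01 times Retnlg with IL-33 and at 10.04 to 14.03 times with PBS, the opposite direction from that against Csf3r. Mpo stood at 0.0123 to 0.0156 times Retnlg with IL-33 and at 0.00131 to 0.00905 times with PBS. These ratios were chosen after the values were seen and were not tested.

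**Figure D4:**
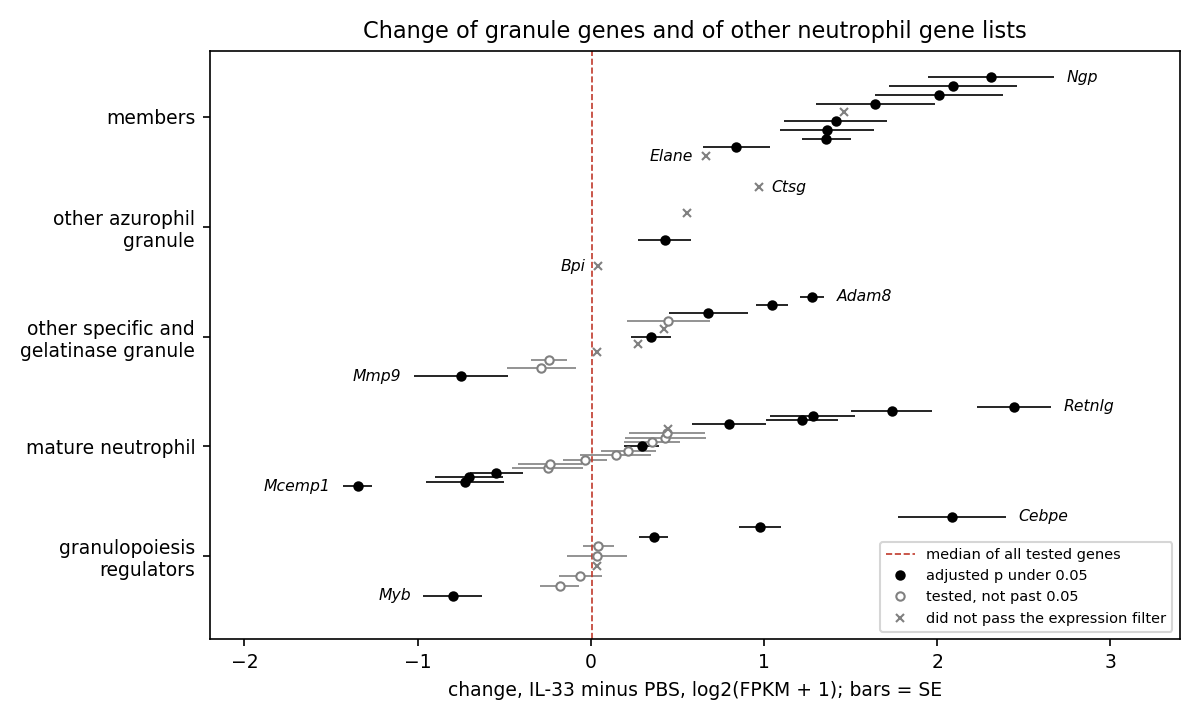
Change of the 10 genes and of 4 lists of other neutrophil genes, IL-33 minus PBS in log2(FPKM + 1) with SE bars, black where the limma adjusted p is under 0.05, open where it is not and a cross where the gene did not pass the filter. The 10 genes lie between 0.66 (Elane) and 2.31 (Ngp), whereas the mature neutrophil genes run from -1.35 (Mcemp1) to 2.44 (Retnlg) around a median of all genes of 0.01 (dashed).

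Among the transcription factors of granulocyte formation, Cebpe was at 7.40, 6.75 and 2.52 FPKM with IL-33 and at 0.463, 0.547 and 0.326 FPKM with PBS, or 120, 103 and 36 fragments against 7, 9 and 6. IL-33 replicate 3 was the lowest of its group here too. The change was 2.08 (SE 0.31, limma adjusted p = 0.0018), but Cebpe passed the filter through its IL-33 libraries only and so had to differ. Of 8 tested regulators, Cebpe included, 3 were higher and 1 lower, or 37.5% and 12.5%, against 28% and 25.5% of all tested genes. These counts became 2 and 3 with equal totals and 2 and 2 with quantile normalization. Cebpa, which acts earlier, rose from 23.9 ± 3.17 to 47.8 ± 5.54 FPKM (change 0.98, SE 0.12), and Spi1 rose by 0.36 (SE 0.08), a call lost with equal totals (0.02) and with quantile normalization (0.00). Myb, a factor of immature and proliferating precursors, fell from 7.11 ± 2.02 to 3.58 ± 0.21 FPKM (change -0.80, SE 0.17). Gfi1, the repressor required for neutrophil formation, named because of its value, was at 3.30 ± 0.79 and 3.19 ± 0.75 FPKM (limma adjusted p = 0.871). C/EBPε is required in eosinophils as well as in neutrophils, and Cebpe transcript cannot be assigned to either cell here.

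Partners of the granule proteins moved in both directions. In the NADPH oxidase, which supplies the peroxide that myeloperoxidase uses, Cyba rose by 0.76 (SE 0.11) and Ncf1 by 0.46 (SE 0.08, 0.12 and no longer called with equal totals), while the catalytic subunit gene Cybb fell by 0.66 (SE 0.09). Among 7 receptors described for S100A8 and S100A9, Cd36 rose from 47.2 ± 7.06 to 97.4 ± 7.38 FPKM (change 1.04, SE 0.12) and Bsg, which encodes CD147, by 0.53 (SE 0.08), a share of 28.6% that is close to that of all genes, and 0 were lower as deposited but 2 with equal totals. Tlr4, named because of its value, was at 11.4 ± 1.98 and 12.7 ± 1.79 FPKM (limma adjusted p = 0.437) and was 1 of those 2 (change -0.47, limma adjusted p = 0.0185). Of 6 tested activators, inhibitors and receptors of granule proteins, 2 were higher and 1 lower. These were 33.3% and 16.7%, against 28% and 25.5% of all tested genes. Ctsc, the peptidase that activates elastase, proteinase 3 and cathepsin G, rose by 0.51 (SE 0.18), a call lost under 10 of 15 alternatives, the metalloprotease inhibitor gene Timp2 rose by 0.72 (SE 0.19), and Lrp1, an endocytic receptor that takes up lactoferrin, fell by 0.52 (SE 0.09). Timp2 lost its call with equal totals and without IL-33 replicate 1, where 0 genes of the list were higher.

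Markers of other cells were compared in the same libraries. Eosinophil markers were higher in 8 of 10 cases and lower in 0, where 3 of the 8 (Epx, Ear1 and Ear6) passed the filter through the IL-33 libraries only, and their summed level was 882 to 1263 FPKM with IL-33 and 220 to 312 FPKM with PBS. Epx, the eosinophil relative of myeloperoxidase, named outside the rule given below, had 350, 408 and 199 fragments with IL-33 and 0, 2 and 1 with PBS. With IL-33 it was, like 4 of the 5 late granule genes, highest in replicate 2 and lowest in replicate 3. Prg2, Ear1, Ear6 and Retnlg had that order too, so it is not particular to Epx. Of 6 tested basophil and mast cell markers 4 were higher and 1 lower. The 4 higher ones all passed the filter through the IL-33 libraries only. They were Mcpt8 (change 2.81), Prss34 (2.53), Cd200r3 (1.58) and Cpa3 (1.52), each without overlap between the groups. The summed level of the list overlapped (45.6 to 51.3 and 43.2 to 48.4 FPKM). Kit, the lower one, was the largest part of that sum, at 21.7 FPKM with IL-33 and 38.3 FPKM with PBS on average. Of 11 tested monocyte markers 4 were higher and 4 lower, 36.4% each (2020 to 3150.5 and 1510 to 1989 FPKM). Of the monocyte markers, 2 were higher without IL-33 replicate 1 or 2 or without PBS replicate 2. Among them Chil3 was at 1274, 509 and 172 FPKM with IL-33 and 11.5, 14.6 and 9.73 FPKM with PBS, and it is also made by immature neutrophils. The summed levels of the monocyte list include Chil3. The other higher ones were Fn1 (change 4.88), F13a1 (0.92) and Ccr2 (0.66). The 4 lower ones were Cx3cr1 (change -2.22), Spn (-1.39), Ly6c2 (-1.30) and Ace (-0.80). Red pulp macrophage markers were higher in 2 of 10 cases, 20% against 28% of all genes, with summed levels that overlapped (3784 to 5165 and 2630 to 4515 FPKM). With equal totals and with quantile normalization 0 of them were higher and 2 lower, and 0 were higher without IL-33 replicate 1 or 3 or PBS replicate 1 or 2. Mitosis genes were higher in 8 of 10 cases (204 to 239 and 111 to 196 FPKM), with Aurkb at a change of 1.04 (SE 0.17), but in 4 without IL-33 replicate 2 or 3 or PBS replicate 1 or 2, and in 3 with equal totals. Of 12 tested T, B, NK and plasma cell markers 3 were higher and 6 lower (546 to 614 and 395 to 676 FPKM), with Jchain of plasma cells at a change of 2.14 and the NK cell factor Eomes at -1.45. Of 15 dendritic cell markers 5 were higher and 7 lower (22042 to 23826 and 15246 to 16016 FPKM), with Siglech of plasmacytoid cells at -1.93. These were 33.3% and 46.7%, against 28% and 25.5% of all tested genes. Most of the summed level was Cd74 and H2-Ab1, at 13977 and 7511 FPKM with IL-33 and 9741 and 4643 FPKM with PBS on average. Flt3, Zbtb46, Irf8, Xcr1, Clec9a, Cd8a and Siglech were the lower ones. Of 5 tested erythroid and progenitor markers 1 was higher and 2 lower (46.0 to 274 and 75.1 to 484 FPKM). No marker in these lists was at 0 in all 6 libraries. The part of each of these cells in the granule gene differences was not tested.

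For S100a9, Ngp and Mpo, the genes outside the 10 with the most similar pattern over the 6 libraries were found by Pearson correlation of log2(FPKM + 1). The libraries fall into 2 groups, so r here holds the group difference as well as the spread within groups, and the genes share the same libraries. For S100a9 these were Palm, Anapc2, Ptges2, Mrpl4 and Thoc6 (r = 0.988 to 0.999), for Ngp they were Spryd3, Mkl2, Tor2a, Lrwd1 and P2rx1 (r = 0.991 to 0.995), and for Mpo they were Dcaf12, Kcnn4, Cnppd1, Smdt1 and Ten1 (r = 0.998 to 0.999). Most of these 15 had small changes, such as 0.20 for Anapc2, which turned to -0.13 with equal totals. P2rx1, an ATP-gated channel of platelets and myeloid cells, was at 2.67, 3.72 and 1.94 FPKM with IL-33 and 0.580, 0.252 and 0.276 FPKM with PBS (change 1.44, limma adjusted p = 0.0012), and passed the filter through its IL-33 libraries only. The potassium channel gene Kcnn4 stood at 33.8 ± 5.91 and 11.1 ± 1.06 FPKM (change 1.51, limma adjusted p = 0.000359).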

How the data were processed

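Per the labels' protocols, RNA was treated with DNase and made into libraries with a kit for stranded mRNA. The authors deposited 1 table per library with FPKM per gene symbol. Cuffnorm 2.2.1, TopHat2 2.0.13, SAMtools 0.1.19 and Bowtie2 2.2.3 are listed with the build mm10, per the submitters' processing notes. The annotation, strand setting and Cuffnorm scaling are not stated by any source used here, so reads of near-identical or overlapping genes may have been divided or shared. Values were analysed as log2(FPKM + 1) with limma 3.58.1 (R 4.3.3, variance following the mean, treatment as the 1 term). A gene was tested where 3 or more libraries reached 1 FPKM, at an adjusted p of 0.05. The pseudocount understates changes of low genes. The fit was tested on simulated data. Relative depth came from values up to 0.3 FPKM, where ratios between libraries peak at that of equal fragments, and fragments of a gene are the smallest whole numbers, searched up to 2000, that match all libraries; S100a9 gave none within the tolerance of 0.02. Absolute depth is otherwise unknown. Genes were named by a rule: the 10 genes, up to 4 called genes per list with the smallest adjusted p, and the 5 nearest patterns of 3 genes. Some further genes, Epx among them, were named because of their values or as markers. The genes, lists and rule were chosen with earlier results of these data known. Same-numbered libraries were not treated as pairs. Alternatives were other pseudocounts, filters, scalings and variance settings, library weights, a replicate block and leaving out each library. Other steps used Python 3.11.15, pandas 2.3.3, numpy 2.4.6, scipy 1.17.1 and matplotlib 3.10.9. Promoter windows matched all 10 genes by symbol. Some genes of the lists are not reported here.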

Additional observations from a re-analysis of the deposited data

How the results depend on the processing

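The counts of all genes called depended on scaling: with equal totals 1277 genes were higher and 5839 lower, against 3230 and 2939 as deposited. The difference between late and early genes turned from 0.65 to -0.86 with a pseudocount of 0.1; by construction, a smaller pseudocount enlarges the changes of the genes lowest in FPKM. With 1 library left out it lay between 0.37 and 0.96, the genes called higher numbered 2622 to 3108, those lower 2214 to 2768, and of the 10 genes 8 were higher and 0 lower each time. A filter of 5 FPKM left 6 of the 10 called and none lower, since fewer were tested. The adjusted p of the 8 called genes was highest for S100a9, at 0.0416 with quantile normalization. With the replicate block, 2806 genes were higher and 2452 lower, 8 of the 10 genes were higher, and the calls of Prss57, Chil1, Ctsc, C1qa and Anapc2 were lost among those named. Same-numbered libraries deviated together by r = -0.05 to 0.09, and IL-33 replicate 2 did not correlate best with its own number. The settings for the 66 genes outside the 10 that were named by the rule were added after the data were seen: 43 kept their call throughout, 23 lost it with equal totals, and Anapc2 reversed there to -0.13. By construction, equal totals lower the change of genes far above 1 FPKM, as summed FPKM was higher with IL-33. The depth limits Elane and Prtn3, with at most 5 fragments in any PBS library.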
